A study of Mus musculus with 15 samples.

Results

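The H3K27ac signal of mouse NIH3T3 fibroblasts was compared before and after ultraviolet irradiation at 2 kinds of site: promoter windows and called peaks. All 21881 promoter windows of the promoter table, each 1000 bp wide and named by gene, and all 90682 peaks of the peak table were used. The peaks were 130 to 3644 bp wide, with a median of 425 bp. The promoter table gives no coordinates, so peaks that lie at promoters could not be set apart, and "all peaks" includes them. Of the 15 samples of the series, 5 bear on this comparison: 2 untreated H3K27ac ChIP-seq samples, 2 irradiated ones and 1 input DNA sample. Matched groups without ChIP were used beside them: 3 untreated and 3 irradiated RNA-seq libraries, and 2 untreated and 2 irradiated samples of FAIRE-seq, which recovers open chromatin. NIH3T3 is an established line of mouse embryonic fibroblasts and carried no added allele or transgene per the labels. Irradiated cells were washed, uncovered, irradiated at 254 nm (UV-C) with 80 J/m2, given fresh medium that contained DMSO and sampled after 6 h. The labels do not say that untreated cells were washed, re-fed or given DMSO, so effects of light and of handling cannot be told apart. The irradiated columns carry DMSO in their names.

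Acetylation of lysine 27 on histone H3 is placed mainly by the acetyltransferases p300 and CBP and is removed by histone deacetylases. It marks nucleosomes that flank active promoters and active enhancers, where bromodomain proteins bind acetylated histones. UV-C light forms lesions between neighbouring pyrimidines that stall RNA polymerase, and irradiated fibroblasts are known to induce immediate early genes through stress kinases and growth arrest and apoptosis genes through p53.

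Upstream sequences of 4 promoters are shown because they give the contrast in direction on which the results turn. Btg2, an antiproliferative p53 target, and Fosb, a subunit of the AP-1 transcription factor, gained H3K27ac, whereas Cbx6, a chromobox protein of Polycomb complexes, and Tubb5, a beta-tubulin, lost it. The sequences are the 250 bases before the annotated start in RefSeq on build GRCm38.p6, and all 4 lie on the minus strand, at chr1:134079156-134079405, chr7:19310046-19310295, chr15:79834334-79834583 and chr17:35838302-35838551. Capitals mark letters of 4 motifs searched on both strands: AP-1 (TGANTCA), the cyclic AMP response element CRE (TGACGTCA), the GC box (GGGCGG) and the CCAAT box (CCAAT).
Btg2: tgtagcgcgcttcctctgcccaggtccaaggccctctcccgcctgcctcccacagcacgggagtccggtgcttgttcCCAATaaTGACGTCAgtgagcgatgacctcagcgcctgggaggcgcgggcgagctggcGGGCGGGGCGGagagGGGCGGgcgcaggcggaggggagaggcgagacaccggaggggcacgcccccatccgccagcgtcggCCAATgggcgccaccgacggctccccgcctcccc
Fosb: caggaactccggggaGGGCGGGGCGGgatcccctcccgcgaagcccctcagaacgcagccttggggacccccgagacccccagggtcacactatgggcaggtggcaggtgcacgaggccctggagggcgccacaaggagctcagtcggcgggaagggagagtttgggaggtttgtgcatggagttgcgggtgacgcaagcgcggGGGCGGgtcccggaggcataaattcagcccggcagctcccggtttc
Cbx6: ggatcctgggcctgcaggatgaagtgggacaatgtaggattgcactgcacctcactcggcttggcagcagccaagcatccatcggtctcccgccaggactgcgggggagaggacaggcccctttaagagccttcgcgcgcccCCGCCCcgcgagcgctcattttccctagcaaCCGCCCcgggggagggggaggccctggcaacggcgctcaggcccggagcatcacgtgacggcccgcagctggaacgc
Tubb5: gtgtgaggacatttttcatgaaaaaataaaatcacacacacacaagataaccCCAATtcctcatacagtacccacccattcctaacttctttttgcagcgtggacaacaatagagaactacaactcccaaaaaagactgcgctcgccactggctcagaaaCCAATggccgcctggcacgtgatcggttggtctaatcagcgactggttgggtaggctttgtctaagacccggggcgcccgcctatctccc
The Btg2 stretch held 1 CRE, 3 GC boxes, the first of which shares letters with the next, and 2 CCAAT boxes. The Fosb stretch held 3 GC boxes and none of the other motifs, Cbx6 held 2 GC boxes only, and Tubb5 held 2 CCAAT boxes only. GC content was 73.2% for Btg2, 68.8% for Fosb, 68% for Cbx6 and 49.2% for Tubb5. A match of letters is a description and not evidence of a bound factor.

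The deposited chromatin tables hold reads pooled over both samples of a condition, so each feature has 1 value before and 1 after irradiation, and no spread between samples could be measured or tested. Differences are given throughout as log2 enrichment over input after irradiation less that before it, with 16 reads added to each count as in the deposited values. The words gain and loss stand for differences that reach 1 in either direction, and they imply no test. Intervals of medians cover the spread over features, which are not independent of each other. Intervals of read ratios and counting SDs cover read counting only. None of them covers the spread between samples. The pools' depth, as given by their input scaling, differed by a factor of 1.01. Promoter windows held 4015279 untreated and 4447997 irradiated reads, a depth-scaled ratio of 1.10, and peaks held 15525272 and 17852404 reads, a ratio of 1.14. RNA libraries held 14211528 to 22032701 counts. All 10 fibroblast markers checked had at least 100 untreated H3K27ac reads at their promoters and 113 to 7195 CPM of RNA, whereas 0 of 19 epithelial, blood, endothelial and neural markers reached 100 untreated reads and each listed cell type summed to 6.61 to 9.49 CPM. After irradiation Krt14 (150 reads) and Cd68 (139 reads) did reach 100, and the 4 sums were 6.42 to 15.4 CPM, the highest for blood, where Cd68 went from a mean of 4.03 to 10.6 CPM. Their part in the results was not tested.

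Promoter H3K27ac differed less between the untreated and irradiated pools than H3K27ac at peaks. Over all 21881 promoter windows the median difference was -0.01 (95% interval -0.03 to -0.01, over windows), the SD was 0.50 and the interquartile range was 0.53. Over all 90682 peaks the median was 0.03 (0.02 to 0.04), the SD was 0.84 and the interquartile range was 1.03. Counting error alone would give an SD of 0.17 at promoter windows and 0.20 at peaks, so the spread of both exceeded it. Gains were seen at 520 promoter windows (2.38%) and losses at 750 (3.43%), together 5.8% of windows. At peaks there were 10696 gains (11.8%) and 9061 losses (9.99%), together 21.8% of peaks. At a lower threshold of 0.58, 8.72% of promoter windows gained and 12.1% lost, against 23.7% and 21.6% of peaks. Over all features the direction of the excess therefore differed, with more losses than gains among promoter windows and more gains than losses among peaks. Promoter windows with a mean of at least 100 reads had 445 gains and 483 losses. At 0.58 their excess was one of gains, 17.2% against 15.2% losses. Over all windows the promoter excess also turned with the number of reads added, to 315 gains against 260 losses with 64 added. With 1 added there were 1381 gains against 3479 losses. No test of either excess was possible with 1 pool per condition, and fewer cells with the mark cannot be told apart from less of it per cell.

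**Figure D1:**
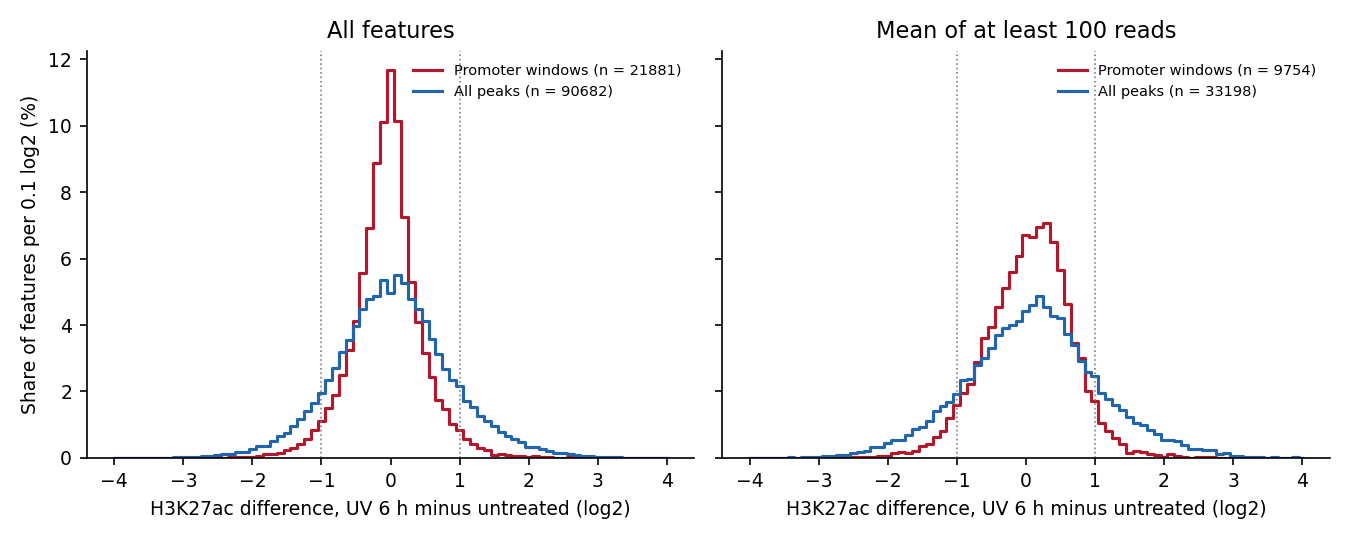
Distribution of the H3K27ac difference (irradiated minus untreated log2 enrichment, horizontal axis) as the share of features per 0.1 log2 (vertical axis), for promoter windows in red and all peaks in blue, over all features at left and over features with a mean of at least 100 reads at right. Dotted lines mark the threshold of 1 in either direction: 5.8% of promoter windows and 21.8% of peaks lie past it at left, and 9.51% and 28.7% at right.

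Of the promoter windows, 8291 had a mean of fewer than 10 reads over both pools, and 0 of these passed 1, a size that the 16 added reads leave hardly reachable at so few reads. Among windows with a mean of at least 100 reads (9754 windows), 445 gained (4.56%) and 483 lost (4.95%), with a median of 0.07 and an SD of 0.61. Of the 33198 peaks with that many reads, 5405 gained (16.3%) and 4107 lost (12.4%), with a median of 0.11 and an SD of 0.98. At 0.58 the shares were 17.2% and 15.2% of such windows and 29.1% and 22.9% of such peaks, so gains outnumbered losses in both. When peaks were weighted to the read classes of the promoter windows, 27.7% of peaks and 9.51% of promoter windows had changed by at least 1, a ratio of 2.91. The mean size of the difference under the same weighting was 0.75 at peaks and 0.48 at promoter windows. Restricting the peaks to those of 800 to under 1200 bp, near the width of a promoter window, gave 27.4% and a ratio of 2.88.

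The wider spread of peaks was present in each class of reads, and the medians depended on read number in both tables. At 100 to under 200 mean reads the SD was 0.60 at promoter windows and 1.07 at peaks, against a counting SD of 0.16 for each. At 800 reads or more it was 0.48 and 0.73, against 0.07 and 0.06. Promoter windows of 50 to under 100 reads had the lowest median, -0.34, with 3.72% gains and 13.2% losses, while peaks of that class had a median of -0.05, with 16.9% gains and 16.3% losses. At 400 to under 800 reads the medians of the 2 tables met, at 0.19 for promoter windows and 0.17 for peaks, and at 800 reads or more they were 0.43 and 0.41. Promoter windows of that highest class had 12.2% gains and 0.308% losses, and most of them did not pass 1. The mean includes the irradiated reads, and this balance differed with the ranking. The 638 promoter windows with at least 800 untreated reads had 1.25% gains and 5.17% losses, with a median of 0.16.

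**Figure D2:**
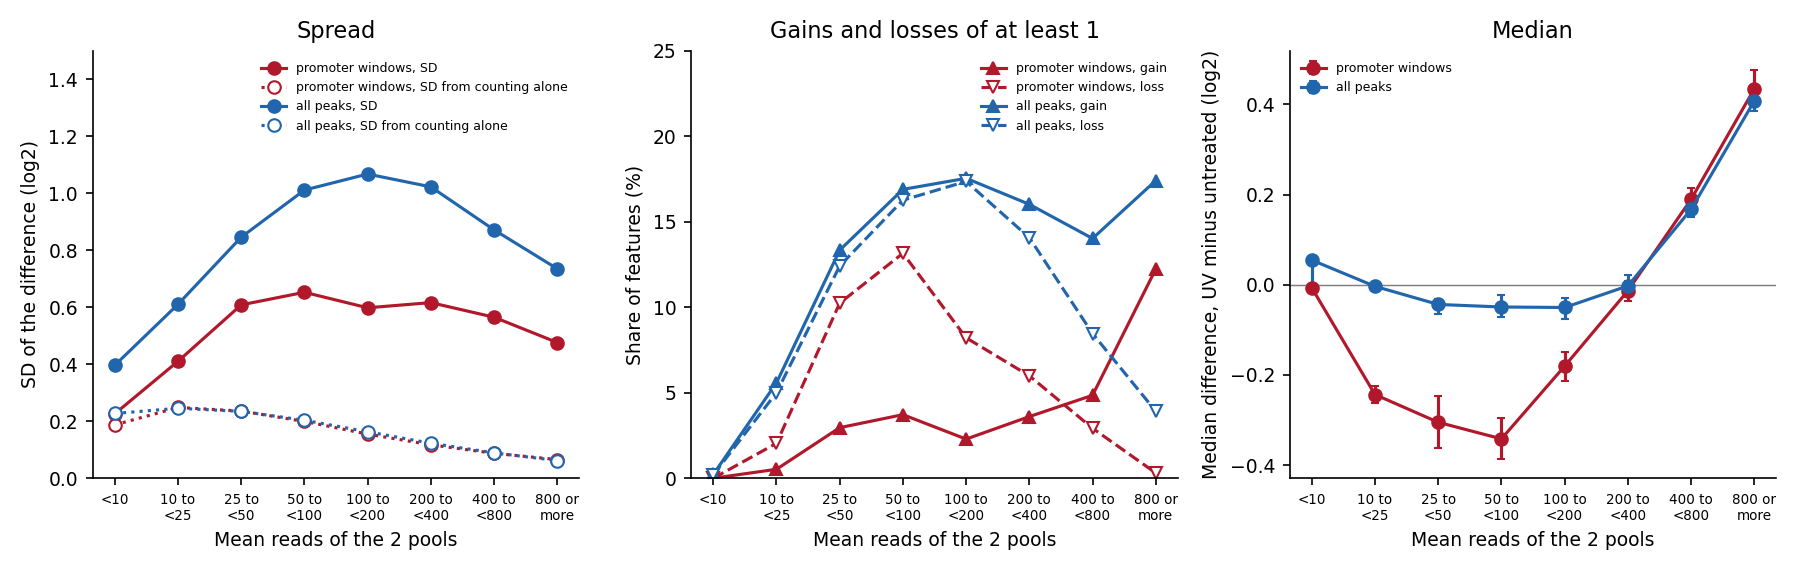
H3K27ac difference by class of mean reads over both pools (horizontal axis): its SD with the SD from counting alone (left, log2), the share of features with a gain or loss of at least 1 (middle, percent) and its median with 95% intervals over features (right, log2). Peaks (blue) have the larger SD in each class, and from 100 reads up the medians of both tables rise, to 0.43 for promoter windows (red) and 0.41 for peaks.

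Peaks of medium width changed most often. The share of peaks past 1 in either direction was 8.63% below 250 bp (25583 peaks), 23.7% at 250 to under 500 bp, 31.4% at 500 to under 1000 bp (22530 peaks), 26.1% at 1000 to under 2000 bp and 23.8% at 2000 bp or more (1091 peaks). The SD followed the same order, at 0.59, 0.84, 1.01, 0.92 and 0.87. Width and read number go together, with a median of 12 untreated reads in the narrowest class and 1113 in the widest, and the 16 added reads damp the difference of a peak with few reads. At a matched density of 400 to under 800 mean reads per kb the narrowest peaks had an SD of 1.01 and those of 1000 to under 2000 bp had 0.77, so the order of the widths was no longer that of all peaks. Promoter windows of that density had an SD of 0.56. In the 4 density classes from 100 reads per kb up, each width class of peaks had a larger SD than the promoter windows. Medians increased from -0.00 in the narrowest class to 0.14 at 1000 to under 2000 bp and 0.16 in the widest.

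**Figure D3:**
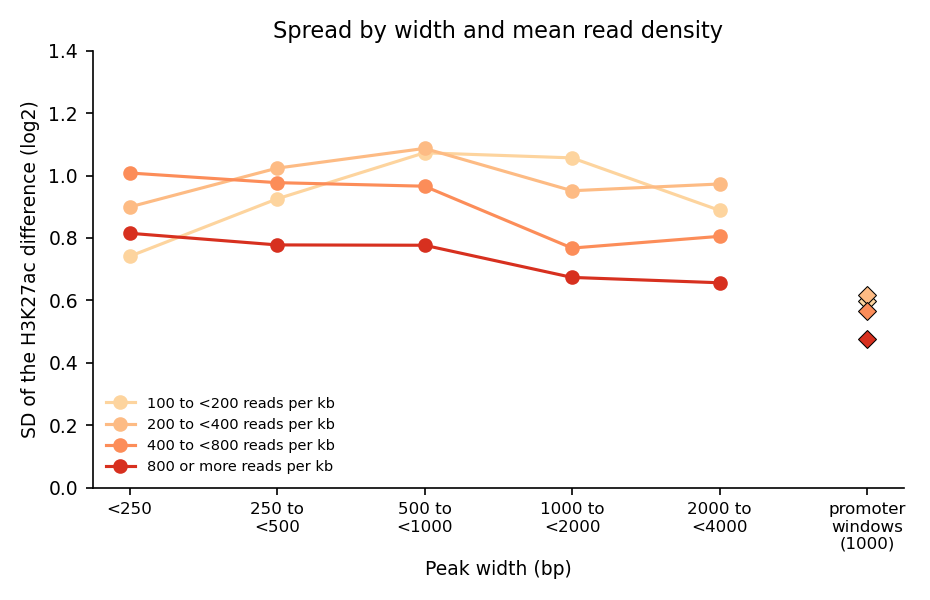
SD of the H3K27ac difference (vertical axis, log2) by peak width (horizontal axis, bp) in 4 classes of mean read density, darker for denser, with promoter windows of 1000 bp as diamonds at right. Peaks lie above the promoter windows of the same density class at each width, for example 1.01 for the narrowest peaks and 0.56 for promoter windows at 400 to under 800 reads per kb.

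Ranked by untreated read density, the 2 tables followed different courses. Promoter windows had a median of 0.00 in the lowest of 10 equal classes, where 0 was the median untreated read number, -0.33 in class 5 (13 to 49 reads per kb) and 0.14 in class 10 (543 reads per kb or more). Peaks had their highest median, 0.77, in class 1 (under 34.8 reads per kb), with 34.9% gains and 0 losses among 9069 peaks. The median untreated read number of that class was 5, where the 16 added reads leave a loss of 1 hardly reachable. The median difference of peaks was -0.33 in class 6, and in class 10 it was -0.06, with 5.84% gains and 16.6% losses. Peaks were called on merged reads per their names, so a peak with few untreated reads had to be read elsewhere, and untreated reads enter both the ranking and the difference. Ranked by irradiated density instead, the course of peaks turned round, from -0.66 in class 1 to 0.61 in class 10, and ranked by the mean of both pools it ran from 0.10 to 0.38. Class 10 of the promoter windows had the highest median under each of these rankings: 0.14 by untreated, 0.35 by mean and 0.45 by irradiated reads. Its balance of gains and losses turned, however, with 3.66% gains and 4.84% losses by untreated, 8.87% and 1.28% by mean, and 11.7% and 0.0457% by irradiated reads. Ranked by untreated FAIRE reads, which the H3K27ac difference does not use, promoter windows had a median of -0.00 in class 1, -0.19 in class 6 and 0.11 in class 10.

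**Figure D4:**
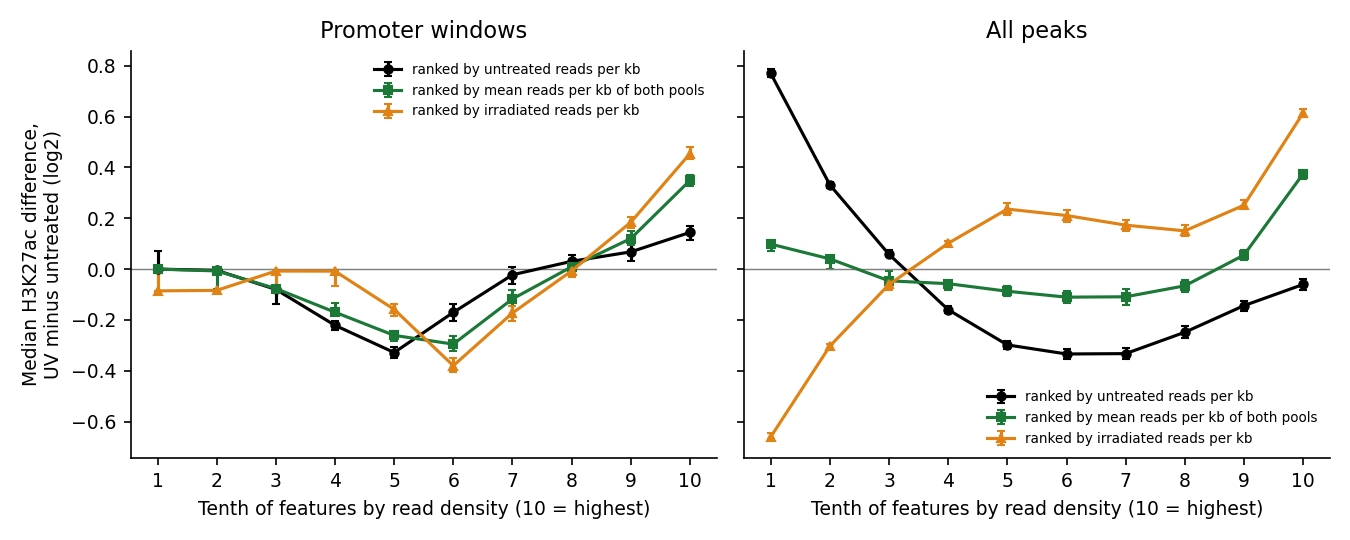
Median H3K27ac difference (vertical axis, log2, bars for 95% intervals over features) in 10 equal classes of read density (horizontal axis, 10 is the densest), for promoter windows at left and all peaks at right, with features ranked by untreated reads (black), the mean of both pools (green) or irradiated reads (orange). The order of peaks turns round between the black line, from 0.77 to -0.06, and the orange line, from -0.66 to 0.61, whereas each promoter line ends above 0.

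The largest differences at single peaks exceeded those at promoters. At chr17:16162324-16164077 (mm9), a peak of 1755 bp, reads increased from 37 untreated to 797 irradiated, a depth-scaled ratio of 21.4 (counting interval 15.4 to 30.6) and a difference of 3.93. FAIRE at the peak that overlaps it differed by 1.70. The peak at chr10:61051635-61052891 went from 47 to 918 reads, chr4:11109937-11111311 from 34 to 724, chr11:75308939-75310414 from 76 to 1330 and chr8:23544576-23545710 from 45 to 857. These 5 gains had 24 to 76 input reads, and 3 of them overlapped a FAIRE peak. Of all peaks with a mean of at least 100 reads 80.6% overlapped one, with 74.3% of gains and 71.9% of losses. The largest loss was at chr2:131530702-131532111, from 1247 to 83 reads, a ratio of 0.0660 (0.0522 to 0.0825) and a difference of -3.68. Other losses were at chr17:81290197-81291026 (624 to 37 reads), chr1:95081037-95081869 (713 to 53), chr9:52873453-52874561 (446 to 29) and chr6:50906619-50907486 (594 to 44). FAIRE differed by -2.08, -1.81 and -1.73 at the 3 losses that overlapped a FAIRE peak. The median FAIRE difference was -0.45 over all well-read peaks with such an overlap and -0.87 over the losses among them. Genes near these peaks are not named, since no annotation of mm9 was used here.

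Neighbouring peaks moved together. For 7750 pairs of adjacent peaks less than 500 bp apart, both with a mean of at least 100 reads, the correlation of their differences was 0.78, and where the left peak had gained, the right one had gained in 66.4% of 1472 pairs and lost in 0.0679%. The correlation was 0.53 at 2000 to under 5000 bp (1522 pairs), 0.27 at 10000 to under 20000 bp (1713 pairs) and 0.02 at 100000 bp or more (322 pairs). All pairs come from the same pools, so these values describe 1 comparison. The number of changed peaks is therefore not a number of separate regions.

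Accessibility differed in the same order as acetylation at both kinds of site. The H3K27ac and FAIRE tables share the input sample. Of the 33198 peaks with a mean of at least 100 reads, 26767 overlapped a FAIRE peak. At these the median FAIRE difference was -0.87 where H3K27ac was lost, -0.47 where it stayed within 0.58 and -0.01 where it was gained. At promoter windows the corresponding medians were -0.58, -0.43 and -0.16, a narrower span. The FAIRE median over all such promoter windows was -0.42, so values are read against that level and not against 0. Peaks without a FAIRE peak had the wider H3K27ac spread at equal read number: the SD was 1.21 (3764 peaks) against 0.98 (7365 peaks) at 100 to under 200 reads, and 1.07 against 0.85 at 400 to under 800.

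Promoters with the largest gains included Pmaip1 and Bbc3, both on the list of p53 targets used here. Among genes tested for RNA, the 10 highest differences were at Aebp2, Dcxr, Pmaip1, A630007B06Rik, Atg9b, Hyal1, Eda2r, Bbc3, Cyp4f17 and Fam198b, from 2.74 down to 2.12. Aebp2, a cofactor of the Polycomb complex that methylates lysine 27 of histone H3, went from 251 to 1775 reads, a ratio of 7.01 (6.14 to 8.03). Dcxr, a carbonyl reductase, went from 69 to 530 reads. Pmaip1, which encodes the proapoptotic protein NOXA, went from 32 to 252 reads. Bbc3, which encodes the proapoptotic protein PUMA, went from 356 to 1680, the second highest irradiated read number of the 10. Eda2r, a member of the TNF receptor superfamily, went from 44 to 264, and Hyal1, a hyaluronidase, from 72 to 397.

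RNA of these genes did not follow in every case. Among all tested genes with a mean of at least 100 promoter reads 11.1% were higher, and among those with a promoter gain 17.6%. Pmaip1 had 2.28, 1.73 and 1.30 CPM in the untreated and 44.3, 19.3 and 32.2 CPM in the irradiated libraries, and rose by a log2 of 4.19 ± 0.30 (SE, adjusted p = 6.6e-08, edgeR quasi-likelihood test, Benjamini-Hochberg). Dcxr had 10.8, 19.7 and 17.8 CPM and then 63.5, 52.1 and 63.4, and rose by 1.89 ± 0.21 (adjusted p = 8.5e-06, edgeR). The groups did not overlap for either gene, which was not counted over all genes. Hyal1 rose by 0.98 ± 0.23 (adjusted p = 0.00544, edgeR). Bbc3 had 3.68, 4.96 and 4.98 CPM before and 6.44, 4.38 and 5.62 after, with overlapping groups, and its log2 fold change was 0.27 ± 0.26 (adjusted p = 0.619, edgeR). The RNA of Aebp2, A630007B06Rik, Atg9b, Eda2r, Cyp4f17 and Fam198b did not pass the test either.

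Promoters with large losses included Fdps and Cbx6. Of the lowest differences, 9 are reported, from -2.72 up to -2.09, at Fdps, Cbx6, Galnt9, Wisp2, Tle2, Aoc3, Gramd4, Ptgfr and Tubb5. Fdps, which makes farnesyl pyrophosphate in the mevalonate pathway, went from 477 to 59 reads, a ratio of 0.123 (0.0919 to 0.161). Ptgfr, the receptor of prostaglandin F2alpha, had the most untreated reads of the 9, 905, and kept 200. Cbx6 went from 668 to 104 and Tubb5 from 661 to 144, whose upstream sequences are given above. The FAIRE difference at the promoter lay below -0.42, the median of all promoter windows with a mean of at least 100 reads, in 6 of the 9, with -1.57 at Cbx6. It lay above that level at Tle2 (-0.21), Gramd4 (-0.33) and Galnt9 (0.36).

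RNA fell for 2 of these 9 genes. Among all tested genes with a mean of at least 100 promoter reads 18.5% were lower, a share near this one. Ptgfr had 81.4, 239 and 199 CPM untreated and 24.7, 49.5 and 57.2 irradiated, and fell by 1.98 ± 0.34 (SE, adjusted p = 0.000381, edgeR). Gramd4 fell by 1.44 ± 0.25 (adjusted p = 0.000414, edgeR). Tubb5 RNA had 3119, 2786 and 2422 CPM before and 3285, 1840 and 2076 after, with overlapping groups (adjusted p = 0.685, edgeR). Fdps RNA had a log2 fold change of 0.53 ± 0.26 in the other direction, which did not pass the test (adjusted p = 0.180, edgeR).

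Most of the p53 targets had higher promoter H3K27ac after irradiation. Of 26 listed genes 25 were found, all but Tigar, and 22 of them had a difference above 0 against 41.7% of all windows, 15 gained against 2.38% of all windows, and 0 lost against 3.43%. A mean of at least 100 reads was reached by 23 of the 25. Of all windows with as many reads, 55.1% were above 0, 4.56% gained and 4.95% lost. The median difference of the 25 was 1.24. The 15 were Pmaip1, Bbc3, Btg2, Sesn2, Ccng1, Aen, Cdkn1a, Tnfrsf10b, Trp53inp1, Polk, Zmat3, Phlda3, Mdm2, Gadd45a and Gdf15. Cdkn1a, which encodes the cell cycle inhibitor p21, went from 245 to 810 reads (difference 1.65), and Mdm2, the ubiquitin ligase that restrains p53, went from 552 to 1333 (1.24). Sesn1, a stress-induced metabolic regulator, had 619 and 491 reads and the lowest difference, -0.33. Ddb2 and Xpc, which recognise UV lesions, had -0.23 and -0.00.

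RNA of the p53 targets was mixed. Of 23 tested, 8 rose and 3 fell (edgeR, adjusted p below 0.05), against 7.7% higher and 12.4% lower of all 14925 genes tested. Among the 14 tested with a promoter gain, 6 rose and 0 fell. Cdkn1a had 29.9, 19.9 and 18.4 CPM before and 180, 55.4 and 91.9 after, and rose by 2.26 ± 0.32 (SE, adjusted p = 7e-05, edgeR). Mdm2 had 108, 80.6 and 69.1 CPM before and 126, 65.3 and 75.1 after, overlapping groups with a log2 fold change of 0.05 ± 0.24 (adjusted p = 0.967, edgeR). Sesn1 fell by 1.91 ± 0.21 (adjusted p = 7.4e-06, edgeR). The RNA calls of Ccng1, Phlda3 and Fas were lost without the second untreated library (adjusted p = 0.0821, 0.0547 and 0.324, edgeR). Without the first irradiated library, or with library totals in place of TMM scaling, 6 p53 targets rose and 6 fell.

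Most immediate early and AP-1 genes also had higher promoter H3K27ac. Of 30 found, 27 had a difference above 0 against 41.7% of all windows, 13 gained against 2.38%, and 0 lost against 3.43%, with a median of 0.83. Of all windows with a mean of at least 100 reads, 55.1% were above 0, 4.56% gained and 4.95% lost. Besides Btg2, which is on both lists, the largest differences were at Fosb (107 to 411 reads, 1.79), Nr4a1 (1.61), Ier5 (1.54), Junb (1.38) and Atf3 (1.27). The 27 with a mean of at least 100 reads had a median of 463 untreated and 933 irradiated reads, classes in which the median of all promoter windows also lay above 0. Centred on the median of promoter windows in the same class of reads, 5 of the 30 gained and 26 were above 0, while 13 of the 25 p53 targets gained. RNA rose for 22 of 29 tested, against 7.7% of all genes, and fell for 2 (1 to 3 over the settings tried), against 12.4%, and among the 13 with a promoter gain 11 rose and 0 fell (edgeR). Fosb RNA had 0.829, 0.910 and 2.03 CPM before and 60.7, 40.7 and 50.4 after, and rose by 5.29 ± 0.29 on the log2 scale (SE, adjusted p = 3.7e-09, edgeR). Btg2 rose from 36.6, 50.5 and 41.0 CPM to 478, 264 and 354 (log2 fold change 3.10 ± 0.25, adjusted p = 2.4e-07, edgeR). Fosl2, another AP-1 subunit, had higher promoter H3K27ac (1518 to 2497 reads, 0.71) while its RNA fell by 1.97 ± 0.22 (adjusted p = 6.6e-06, edgeR).

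**Figure D5:**
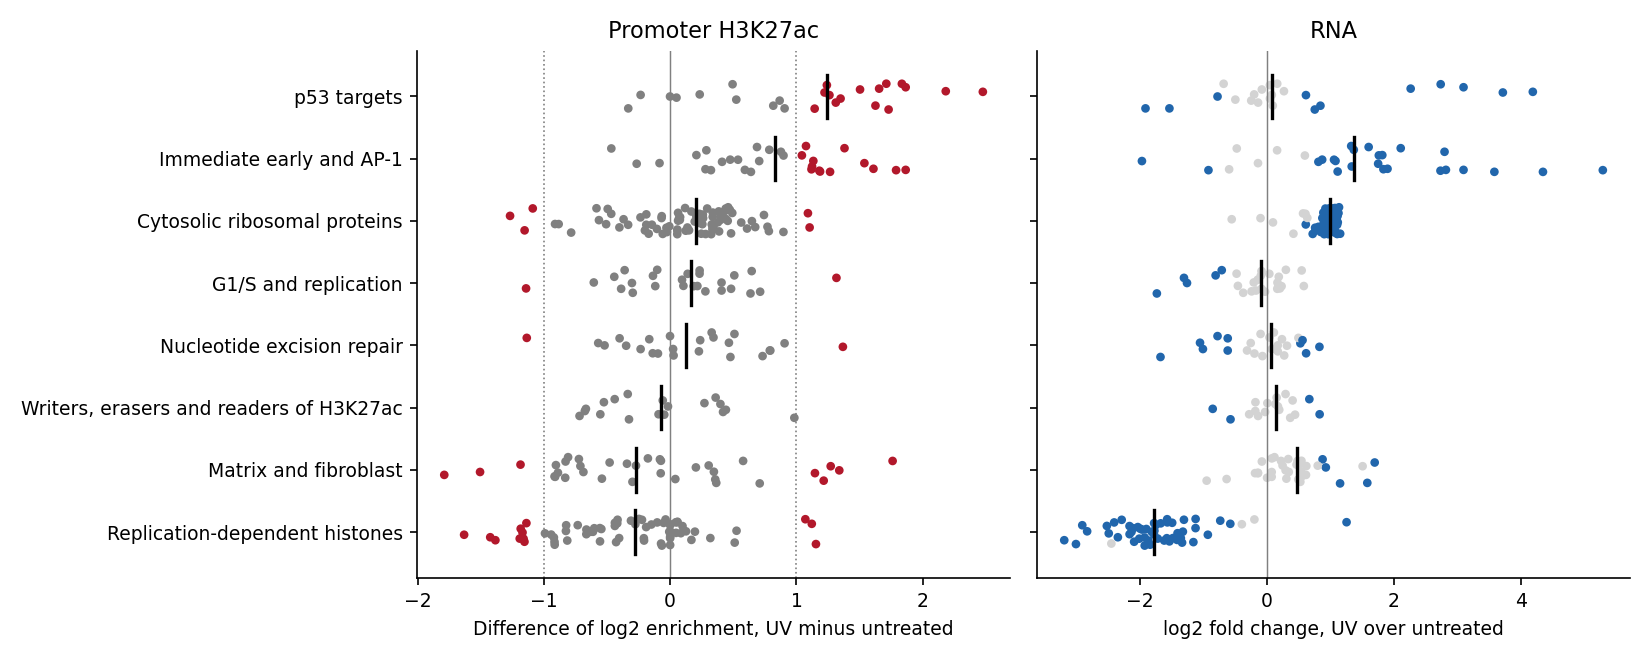
Each point is a gene of a list (rows), with the promoter H3K27ac difference at left (log2, red for a size of at least 1) and the RNA log2 fold change at right (blue for an adjusted p below 0.05 by edgeR); black bars are medians. Promoter medians of the p53 and immediate early lists lie at 1.24 and 0.83, while histone and ribosomal protein genes lie at -0.28 and 0.21 with RNA medians of -1.77 and 0.99.

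Most histone genes fell and most ribosomal protein genes rose in RNA, while most of their promoters neither gained nor lost H3K27ac. The list of replication-dependent histone genes was drawn by symbol and includes the pseudogenes Hist3h2bb-ps and Hist2h3c2-ps. Of its 67 members found, 15 had a difference above 0 against 41.7% of all windows. Of the same members, 3 gained against 2.38% and 9 lost against 3.43%, with a median of -0.28. Of the 67, 34 had a mean of at least 100 reads, and 6 had 0 reads in both pools and in the input. Centred within classes of mean reads, 26 were above 0, 3 gained and 4 lost, with a median of -0.14, and with 64 reads added 0 gained and 3 lost. RNA of 49 of 53 tested fell, against 12.4% of all genes, and 1 rose (edgeR). Hist1h3g lost acetylation (301 to 106 reads) and its RNA went from 21.9, 18.9 and 18.7 CPM to 1.67, 2.96 and 1.91 (log2 fold change -3.19 ± 0.23, adjusted p = 8.4e-08, edgeR). Hist1h2an had more reads after irradiation (62 to 158, a difference of 1.15), and its RNA fell by 3.00 ± 0.44 (adjusted p = 9.2e-05, edgeR). The list of cytosolic ribosomal protein genes was also drawn by symbol and includes Rps19bp1, which encodes a binding protein. Of its 86 members, 59 were above 0, against 41.7% of all windows, and 2 gained and 3 lost (2.33% and 3.49%). These 2 shares lie near those of all windows. However, 82 of the 86 had a mean of at least 100 reads. Of all windows with as many reads, 55.1% were above 0, 4.56% gained and 4.95% lost. The median of the 86 genes, 0.21, became 0.09 when centred within classes of mean reads, with 2 gains and 5 losses. RNA of 73 of 80 tested rose, against 7.7% of all genes, and 0 fell (edgeR), and without the third irradiated library 57 rose. Rpl36a and Rpl39, of the large ribosomal subunit, lost promoter H3K27ac (212 to 79 and 283 to 119 reads) while their RNA rose by 1.04 ± 0.21 and 1.07 ± 0.21 (adjusted p = 0.00160 and 0.00143, edgeR). Histone and ribosomal protein genes have near-identical copies between which the counting could split reads, and with library totals in place of TMM scaling 71 ribosomal protein genes rose and 1 fell.

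Matrix genes diverged among themselves. Of 35 found, 13 had a difference above 0 against 41.7% of all windows, 5 gained against 2.38% and 3 lost against 3.43%, with a median of -0.27. A mean of at least 100 reads was reached by 30 of the 35. Of all windows with as many reads, 55.1% were above 0, 4.56% gained and 4.95% lost. Centred within classes of mean reads, 3 of the 35 gained, 5 lost and 9 were above 0, so the balance turned. The gains included Tnc (tenascin, 271 to 962 reads), Col5a2, Ctgf and Cyr61, and the losses were at Bgn (biglycan, 476 to 127), Col6a2 (684 to 232) and Dcn (140 to 53). RNA of none of the 8 genes that gained or lost without centring passed the test in edgeR. Of the 35 genes, 5 rose in RNA against 7.7% of all genes tested, and 0 fell against 12.4% (edgeR). Among the 5 was Fn1, which encodes fibronectin (log2 fold change 1.58 ± 0.24, adjusted p = 0.000144, edgeR), with a promoter difference of 0.37. With 1 library left out, 6 to 16 of the 35 rose, the most without the first untreated library (16), then without the second (10) and first (8) irradiated library. Without the first irradiated library 3 of the 35 fell. None of the 18 writers, erasers and readers of acetylation passed 1 without centring, and 6 of the 18 were above 0. After centring within classes of mean reads 1 lost and 6 were above 0, with a median of -0.30 in place of -0.08. All 18 had a mean of at least 100 reads, and of all such windows 9.51% passed 1 and 55.1% were above 0. Nucleotide excision repair (24 found, all listed but Uvssa) and G1/S and replication genes (26 found) each had 1 gain and 1 loss, shares of 4.17% and 3.85% each way that lie near those of promoter windows with a mean of at least 100 reads (4.56% gained, 4.95% lost), with medians of 0.13 and 0.16. Centred within classes of mean reads, 0 repair genes gained and 0 G1/S genes lost. The G1/S gain was at Orc1, a subunit of the origin recognition complex, from 425 to 1089 reads, and its RNA fell by 1.30 ± 0.19 (adjusted p = 8.6e-05, edgeR).

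Across all promoters, acetylation and RNA differences were little correlated. Of the 9754 windows with a mean of at least 100 reads, 8757 had a tested RNA, of which 11.1% were higher and 18.5% lower. Among the 387 with a promoter gain, 17.6% were higher and 14.7% lower, and among the 431 with a loss, 10.0% were higher and 23.2% lower. The median RNA log2 fold change was 0.09 (0.02 to 0.17) for gains and 0.01 (-0.06 to 0.06) for losses. The correlation across these genes was 0.11 (Spearman 0.07). Genes are not independent, and the RNA p-values measure only the spread between the 3 libraries of a condition, which the labels do not say came from separate cultures. Without the third irradiated library 585 genes rose and 1139 fell in place of 1149 and 1854, and without the second untreated library 1941 rose and 1168 fell.

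The base composition of promoters could not be compared for the table as a whole. RefSeq promoter sequences (GRCm38.p6) were matched by symbol to 7776 of the 9754 windows with a mean of at least 100 reads (79.7%), and to fewer of the windows that gained (348 of 445) or lost (368 of 483), so checks of CpG content and motifs in gained and lost promoters are void. For reference, the CRE letters stand in 1.79% of all 32851 RefSeq promoter sequences of 300 bases, the AP-1 letters in 7.81%, the GC box in 35.7% and the CCAAT box in 37.4%. In sequences matched to windows with a mean of at least 100 reads, these shares were 3.55%, 4.42%, 67.0% and 38.2%. The stretches printed above come from such windows and have 250 bases, so neither set of shares is a like background for them.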

How the data were processed

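H3K27ac was measured by ChIP-seq in 2 untreated and 2 irradiated samples with 1 input, and RNA in 3 libraries per condition. Upstream tools named in the submitters' processing notes are Bowtie 0.12.9, MACS2, TopHat and DESeq2, on mouse build mm9. Their settings were not given. The chromatin tables hold, per the file headers, read counts per feature for each pool and the input, and the log2 enrichment that the authors deposited. That value was recomputed exactly as log2((reads + 16) / (scale × input + 16)), with scales of 0.706 untreated and 0.712 irradiated in the promoter table. The deposited peak table uses the untreated scale for both pools, and here each pool's own scale was used in both tables. The peak score deposited by the authors was used only to rank peaks. RNA counts were deposited unscaled by the authors. The 8 value columns of other samples were not used.

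Pools were compared in Python 3.11.15 (numpy 2.4.6, pandas 2.3.3, scipy 1.17.1) with no test. Median intervals are 95% order-statistic intervals over features, and read ratios carry exact 95% binomial intervals for counting error. The counting SD was propagated from read numbers. Standardized shares weight peaks by the promoter windows' classes of mean reads. Peaks were intersected with FAIRE peaks at 1 bp with bedtools 2.31.1, and coordinates are 1-based in mm9. A planned split of peaks by overlap with promoters could not be made, because the promoter table used has no coordinates.

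RNA counts were tested in R 4.3.3 with edgeR 4.0.16 (filterByExpr, TMM, glmQLFit, quasi-likelihood test), with Benjamini-Hochberg adjustment over 14925 genes and a threshold of 0.05. DESeq2 1.42.0, other scalings, no filter, the replicate block and leaving out each library were alternatives. CPM uses TMM-scaled totals. The RNA test and the counting SD were tested on simulated data. Figures used matplotlib 3.10.9.

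Named promoters are the 10 highest and 10 lowest differences among windows with a mean of at least 100 reads and a tested gene. Named peaks are the 5 highest and 5 lowest of at least 200 bp with as many reads. For each list the 2 highest and 2 lowest members were to be named, and further members named were chosen after their values were seen. The sites, gene lists and tests were chosen with earlier results of these data known, and the lists are not independent evidence. A few genes that meet these rules are not reported here.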

Additional observations from a re-analysis of the deposited data

How the results depend on the processing

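The ratio of peaks to promoter windows past 1 at equal read number, 2.91, stayed above 1 under each setting tried. It was 2.62 with 1 read added, 3.75 with 64 added, 1.56 at a threshold of 0.58 (32.4% of promoter windows, 50.7% of peaks), 3.35 after centring within classes of mean reads, 2.73 for peaks with a FAIRE peak and 3.74 for those without. With 1 read added, promoter windows had 1381 gains, 3479 losses and an interquartile range of 1.05, and peaks 18031, 16918 and 1.54. With 64 added, promoter windows had 315, 260 and 0.25, so that gains outnumbered losses, and peaks 5017, 3399 and 0.57, with a median of 0.016. At 0.58, promoter windows had 1909 gains and 2641 losses and peaks 21515 and 19561. Centring on all peaks gave medians of -0.040 and 0. Centring within read classes, chosen after seeing the data as were the FAIRE and 800 to under 1200 bp settings, gave medians of 0 and interquartile ranges of 0.47 and 1.01. In the upper 50% by mean reads, promoter windows had a median of 0.032 and an interquartile range of 0.82, and peaks 0.070 and 1.26. The upper 50% of peaks by score gave 5212 losses, 0.12 and 1.22. Peaks of at least 1000 bp gave 2612 gains, 1829 losses, 0.14 and 1.13. The cause of these shifts was not tested, beyond the fewer features in the last 3 settings. Density class 10 minus class 1 was 0.14 for promoter windows by untreated density, 0.35 by mean and 0.54 by irradiated reads. For peaks it was -0.83, and it reversed to 0.28 by mean and 1.27 by irradiated reads. The ranking reads enter the difference in both tables, and their part in the reversal was not tested.

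RNA gave 3739 lower genes with library totals alone, where the median of all genes shifted by -0.23. Leaving out a library gave 585 to 1941 higher and 1139 to 2849 lower genes, with moves over 1.5 times for untreated libraries 1 (1796 higher) and 2, and irradiated libraries 1 and 3. The replicate block gave 1276 higher and 2067 lower genes. The labels give the RNA groups shared numbers. Correlations of same-numbered libraries, as deviations from their group means, were 0.155, -0.58 and 0.504, and not every library correlated best with its own number. With 3 libraries per group these values cannot decide whether the numbers mark pairs. No paired analysis was possible for chromatin because its samples are pooled.

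The planned split of peaks at and outside promoters, its overlap of 50%, the removal of overlapping windows and the comparison with peaks near each gene were not run, because the promoter table used has no coordinates. Removing windows with identical reads (38 windows in 19 sets) or chromosome M changed no direction. The deposited enrichment columns and reads without input changed no direction either. Low read numbers limit the narrow peaks, whose difference is damped by the added reads.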
